A study of Mus musculus with 3 samples.

Results

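Ventral inhibitory (VI) neurons are the inhibitory interneurons of the ventral horn of the spinal cord. They were taken here as the nuclei that the authors typed as neurons and then assigned to the sub-type VI by mapping to a published reference of cord nuclei. The rule found 496 nuclei, which is 5.64% of 8800 neurons and part of 14662 nuclei in all. The study profiled nuclei of flash-frozen lumbar spinal cord by droplet RNA sequencing in 12 mice aged 90 days. SOD1G93A mice (B6.Cg-Tg(SOD1*G93A)1Gur/J, which carry a mutant human SOD1 transgene at high copy number under the human SOD1 promoter) were compared with C57BL/6J littermates (WT), with 3 females and 3 males of each genotype. Each of 3 pools, A, B and C, held 1 mouse of each sex and genotype, so that every SOD1G93A mouse has a WT mouse of its sex in its pool and the 12 mice form 6 such pairs.

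Interneurons of the ventral horn shape the output of motor neurons. The inhibitory ones release glycine, GABA or both. Glycine enters the nerve terminal through the transporter encoded by Slc6a5, GABA is made by the enzymes encoded by Gad1 and Gad2, and both are loaded into vesicles by the product of Slc32a1. Several developmental classes contribute to this population. V1 neurons express En1 as they form and include a clade marked by Foxp2, and V2b neurons descend from cells that express Gata2 and Gata3. Renshaw cells are V1 neurons that motor neurons excite through acetylcholine and that inhibit motor neurons in turn, and they are known for Chrna2, Calb1 and Onecut genes.

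The VI nuclei held 12988203 unique molecular identifiers (UMIs, each counted as 1 RNA molecule), and the median nucleus had 23031 UMIs of 5266 genes. The mice contributed between 7 and 95 VI nuclei, with a median of 38. The lowest number came from the SOD1G93A female of pool A, whose VI nuclei held 95191 UMIs, against 2773924 in the deepest mouse. Only the SOD1G93A male of pool C, with 14 nuclei, was also below 15. Levels are given as CPM, the UMIs of a gene as a share of all UMIs of the VI nuclei of a mouse, scaled to a total of 1000000, and they are compared between groups of cells for the same gene only. No VI nucleus shared its barcode with a nucleus of another pool, against 30 of all nuclei.

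The assignment of these nuclei was less certain than that of other inhibitory neurons. Of the 496 nuclei, 488 (98.4%) were mapped to 1 reference type, VI_5. The mapping score, which runs from 0 to 1, had a median of 0.433 in VI nuclei, and 337 of them (67.9%) scored under 0.5. The medians were 0.889 in the dorsal inhibitory (DI) sub-type, 0.683 in the mid inhibitory (MI) sub-type and 0.490 in the ventral excitatory (VE) sub-type.

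The inhibitory label was checked against its defining markers. At least 1 UMI of Gad1, Gad2, Slc32a1 or Slc6a5 was present in 443 VI nuclei (89.3%). After every nucleus was thinned to 5000 UMIs, which left out 5 VI nuclei, the share was 66.6% (95% exact binomial interval 62.2 to 70.8). At the same depth it was 79.2% in DI, 70.5% in MI and 25.9% in VE nuclei. It was 21.8% in oligodendrocytes, glial cells that should lack these RNAs, and 14.4% in dorsal excitatory neurons. Thinning left out 872 of 2165 oligodendrocytes. Median depths before thinning were 23031 UMIs in VI nuclei and 5786 in oligodendrocytes. Thinning therefore took out more of the UMIs of VI nuclei, those of free RNA of the preparation included. These shares do not give the level of free RNA in VI nuclei, which was not measured. Slc17a6, which encodes the vesicular glutamate transporter of most excitatory cord neurons, had a UMI in 109 VI nuclei. After thinning it had a UMI in 10.4% of VI nuclei, 4.21% of DI, 10.0% of MI and 36.9% of VE nuclei, and 8.28% of oligodendrocytes. In the unthinned data, 370 VI nuclei had inhibitory UMIs without Slc17a6, 73 had both, 36 had Slc17a6 alone and 17 had neither. The intervals cover counting error only. Slc17a6 without an inhibitory UMI was found in 7.26% of VI, 0.378% of DI, 8.67% of MI and 46.9% of VE nuclei. In oligodendrocytes it was 7.81%, and all these shares are at different depths. Of the 36 such VI nuclei, 10 lay in clusters 0 and 27 of the authors' clustering, described further on.

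Gad1 and Gad2, the genes of GABA synthesis, were lower in VI than in DI and MI neurons. The mean of the glycine transporter gene Slc6a5 was higher in VI. Slc6a5 stood at 107.5 CPM in the lowest mouse, 156.5 in the median and 189.4 in the highest, with a mean of 150.7 ± 26.5 CPM (SD, n = 12 mice). The mean was 84.6 ± 12.6 in DI, 90.0 ± 20.0 in MI and 48.5 ± 10.6 in VE neurons, and Slc6a5 was higher in VI than in DI and than in VE in all 12 mice and higher than in MI in 10 of 12. Gad1 was at 20.6 ± 5.47 CPM in VI, between 12.98 and 30.53, against 113.6 ± 20.5 in DI, between 65.39 and 145.3, and 66.0 ± 18.6 in MI, between 34.2 and 100.6. Gad1 values of VI neurons therefore did not overlap those of DI or MI neurons in any mouse. Gad2 was at 42.1 ± 12.7 CPM in VI, 107.4 ± 13.4 in DI and 154.7 ± 20.0 in MI, again with no overlap. Slc32a1, which serves both transmitters, was at 40.3 ± 19.3, 37.5 ± 15.6 and 31.2 ± 10.4 CPM in VI, DI and MI, differences smaller than the SD over mice. These are descriptions with no test, because sub-types were assigned from the expression of the same nuclei.

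**Figure D1:**
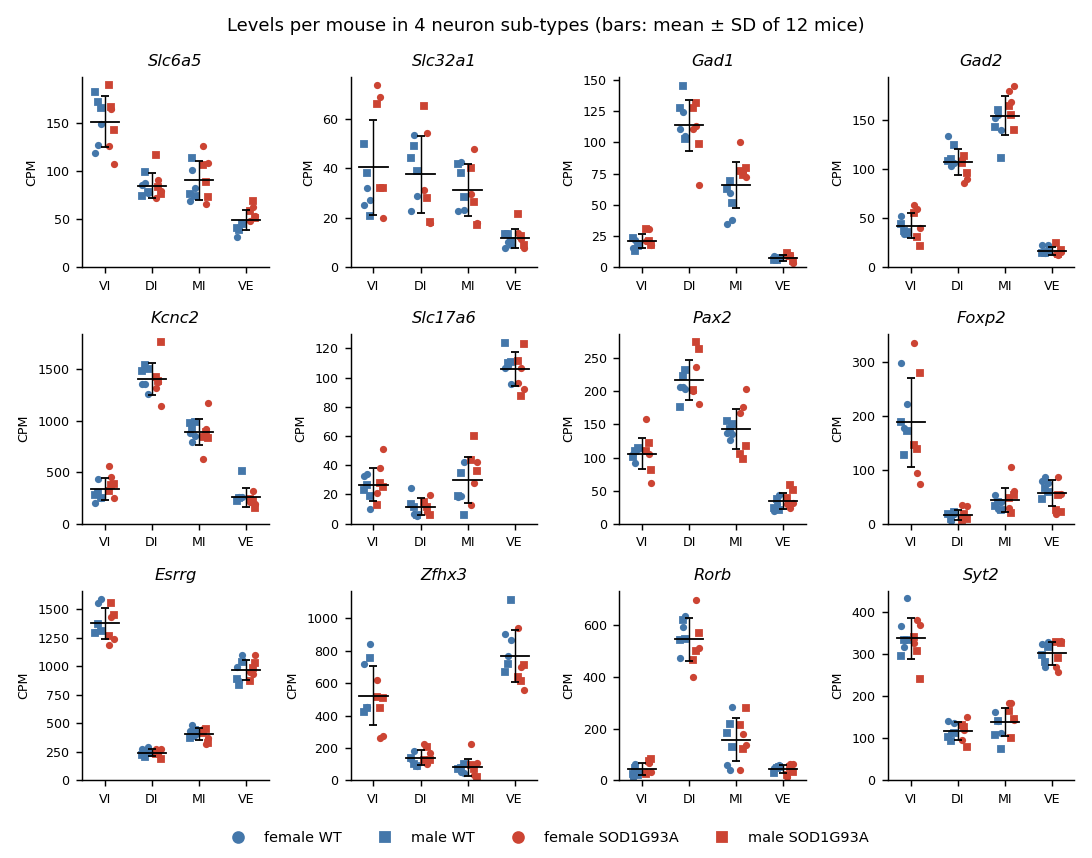
Level of 12 genes in each mouse (y axis, CPM) in the VI, DI, MI and VE neurons (x axis). Points are mice, coloured by genotype and shaped by sex, and bars give the mean ± SD of 12 mice. Slc6a5 and Esrrg are highest in VI, Gad1, Kcnc2 and Rorb are lower in VI than in DI, and Slc17a6 is high in VE (105.8 ± 11.4) and low in VI (26.7 ± 11.3).

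Across the transcriptome, VI neurons differed from DI neurons at many genes and from VE neurons at few. A gene was counted as higher or lower where the mean within-mouse difference was at least 1 on the log2 scale and all 12 mice went the same way. Against DI, 283 of 9040 genes (3.13%) were higher and 478 (5.29%) lower. Against MI, 106 of 7215 genes (1.47%) were higher and 165 (2.29%) lower. Against VE, 9 of 9169 genes (0.0982%) were higher and 15 (0.164%) lower, and 99.5% of genes lay within 1 on the log2 scale. The median absolute difference over genes was 0.29 against DI, 0.23 against MI and 0.12 against VE. The count against MI fell to 66 when the UMIs of both sub-types were thinned to the smaller sum of each mouse. It was 170 without the 2 mice that had under 15 VI nuclei. A gene could enter through either sub-type, and one that passed the filter on low counts only where it was high had its direction fixed. Genes that passed in both sub-types made up 260 of the 283 higher and 314 of the 478 lower against DI, 65 of 106 and 147 of 165 against MI, and 9 of 9 and 13 of 15 against VE. Genes named further on that passed only in the other sub-type included Hpse2, Hmga2, Nfix and Bdnf. In the comparison with MI, Acan, Scn4b and Onecut2 passed only in VI. By this rule Gad1 and Gad2 were lower in VI than in DI and in MI neurons.

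**Figure D2:**
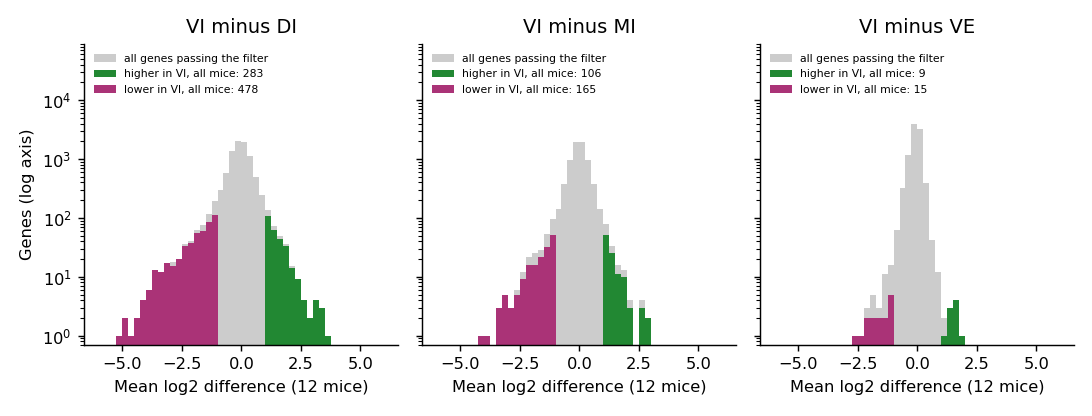
Number of genes (y axis, log scale) by their mean within-mouse log2 difference in 12 mice (x axis) between VI neurons and DI (left), MI (middle) and VE neurons (right). Green and purple mark genes that were at least 1 log2 unit higher or lower with all mice in the same direction, which were 283 and 478 against DI but 9 and 15 against VE.

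The 9 genes higher in VI than in VE neurons were Pax8, Foxp2, Pax2, Slc32a1, Slc6a5, Kcnmb2, Gad1, Gad2 and Erbb4. Of these, 4 are the inhibitory transmitter genes named above, and Pax2 and Pax8 encode transcription factors of inhibitory cord neurons. Pax2 was at 106.0 ± 23.1 CPM in VI and 34.0 ± 12.4 in VE neurons, and Pax8 at 25.5 ± 17.7 against 5.49 ± 2.63. Kcnmb2, which encodes a beta subunit of a large-conductance calcium-activated potassium channel, was 1.5 higher on the log2 scale than in VE, and lower than in DI and MI neurons. The 15 lower genes were led by Tmem163 (−2.75), Cacna2d1 (−2.32), which encodes an auxiliary subunit of voltage-gated calcium channels, Nrn1 (−2.12), Slc17a6 (−2.06) and Cpa6 (−1.90). Bdnf, a neurotrophin, was lower by 1.84 ± 1.10 (SD over mice) and Camk2a, a calcium-dependent kinase of excitatory synapses, by 1.27 ± 1.16. The direction of Bdnf was fixed, since it passed the filter only in VE neurons.

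The genes that stood out most against the nearest of the 3 other sub-types, with all mice in 1 direction in each comparison, were Erbb4, Gm13832, Esrrg, Crlf3, Elavl4, Me3, Slit2 and Ksr1. Esrrg, an orphan nuclear receptor, was at 1187.1 CPM in the lowest mouse and 1590.1 in the highest, with a mean of 1376 ± 136. It was 2.45 higher on the log2 scale than in DI, 1.75 higher than in MI and 0.51 higher than in VE neurons (965.3 ± 88.6 CPM). After thinning, Esrrg had a UMI in 97.6% of VI nuclei, 92.9% of VE nuclei and 27.5% of oligodendrocytes. Erbb4, which encodes a neuregulin receptor, was higher by 2.34, 0.87 and 1.17 against DI, MI and VE. Slit2, a secreted axon guidance cue, was higher by 2.84, 1.12 and 0.34. Against VE, only Erbb4 among these 8 genes passed a difference of 1.

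The genes higher in VI than in DI neurons included the transcription factor genes Foxp2 (+3.37 on the log2 scale), Meis2 (+3.31) and Zfhx3 (+1.81). Samd5 (+3.39) and Kcns3 (+3.21), which encodes a modifying subunit of Kv2 potassium channels, were also among the 8 highest. Nfib and Nfix, which encode nuclear factor I proteins, were lower in VI, at −1.38 and −1.71 against DI and −2.18 and −2.20 against MI. Of 10 tested genes of the laminar and projection factors, 2 were higher and 2 lower than in DI (3.13 and 5.29% of all genes), 2 higher and 3 lower than in MI (1.47 and 2.29%), and 1 (Foxp2) was higher than in VE (0.0982%). Both counts of lower genes include Nfix, which entered only through DI or MI. The count of genes higher than in MI includes Onecut2, which entered only through VI. The direction of Nfix and of Onecut2 there was fixed. The lowest genes against DI were Hpse2 (−5.02), Ankfn1 (−4.90), Stac (−4.80), Hmga2 (−4.65) and Cdh3 (−4.49), and Hmga2 and Stac were also the lowest against MI (−4.04 and −3.87). Hpse2 and Hmga2 passed the filter only in the other sub-type, as given above, so their direction was fixed. Of the 14 genes of dorsal inhibitory classes, Rorb (−3.86) and Pax8 (−2.47) were lower than in DI. Gbx1 (−3.71), Kcnip2 (−3.18), Cdh3 and Penk (−1.89), which encodes the enkephalin precursor, were lower too, but they did not pass the filter in VI neurons and entered only through DI, so that their direction was fixed. Rorb was at 43.6 ± 23.6 CPM in VI against 545.9 ± 83.2 in DI. DI nuclei were typed from expression, so the direction of this list was in part fixed by the assignment.

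Genes of fast firing and fast release were in part higher in VI than in DI and MI neurons. Of 20 such genes, all tested against DI, 4 were higher and 1 lower (3.13 and 5.29% of all genes), with a list median of +0.61 against −0.04 for all genes. The 4 were Syt2 (+1.47), the calcium sensor of fast release, Kcna1 (+1.46), a Kv1 potassium channel subunit, Scn4b (+1.30), a sodium channel beta subunit, and Cplx1 (+1.07). Syt2 stood at 336.4 ± 47.7 CPM, between 241.5 and 431.5, in VI neurons and between 80.32 and 149.6 in DI neurons, so the mice did not overlap. The lower gene was Kcnc2, a Kv3 subunit, at 337.6 ± 104.0 CPM in VI against 1406 ± 155 in DI. Against MI, 3 of 19 were higher (Syt2, Kcna1 and Scn4b) and Kcnc2 was lower (1.47 and 2.29% of all genes). Scn4b passed the filter only in VI in that comparison, so its direction was fixed. Against VE, none of the 20 passed in either direction and the median was +0.06. With 0.0982% of all genes higher and 0.164% lower than in VE, that count of 0 is no result about the list.

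The perineuronal net is the matrix that wraps many fast-firing neurons. Of 7 tested genes, 4 were higher in VI than in DI (3.13% of all genes), namely Acan (+1.90), Hapln1 (+1.78), Bcan (+1.76) and Tnr (+1.02). Against MI, 1 of 4 was higher (Acan, +1.96, with 1.47% of all genes). Acan passed the filter only in VI in that comparison, so its direction was fixed. Against VE, 0 of 7 were higher, which is near the share of all genes (0.0982%) and is no result about the list. Bcan, Tnr and Vcan are also made by oligodendrocyte precursors and other glia. Of the precursor markers, Tnr had 6176 UMIs in the VI nuclei, Vcan 163 and Cspg4 7, and Cspg4 had a UMI in 4 VI nuclei (0.806%).

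Some glutamate receptor genes were lower in VI than in DI neurons. Of 21 tested, 7 were lower and 1 higher, with a median of −0.50 against −0.04 for all genes, of which 5.29% were lower and 3.13% higher. The AMPA receptor gene Gria1 was at 195.5 ± 48.0 CPM in VI, between 105.1 and 269.2, against 954.2 ± 98.2 in DI, and the metabotropic receptor genes Grm3 (−2.25), Grm5 (−1.70) and Grm7 (−1.58) were also lower. Grid1, a delta receptor gene, was higher by 1.73. Against MI 1 was higher and 4 were lower (1.47 and 2.29% of all genes), and against VE 0 of 21 passed in either direction. With 0.0982% of all genes higher and 0.164% lower than in VE, a count of 0 there is no result about a list. Among 20 tested genes of inhibitory synapses, 2 were lower than in DI, a share near that of all genes, and 1 was higher and 4 lower than in MI, with the shares of all genes as above. The GABA-A subunit gene Gabra2 was lower than in both (−1.24 and −1.34), the glycine receptor gene Glra2 was lower than in MI (−1.94), and Gabra5 was higher than in MI (+1.02). Gphn, the scaffold of both kinds of inhibitory synapse, had differences of 0.15, 0.08 and −0.03 against DI, MI and VE. Necab1, a calcium-binding protein gene, was lower than in DI (−2.95) and MI (−2.48). Of 16 acetylcholine receptor genes only 3 passed the filter. Chrm3 was lower than in DI (−1.90) and Chrna7 was lower than in MI (−1.49). None passed against VE, again near the share of all genes.

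Genes of Renshaw cells were scarcely detected. Chrna2 had 0 UMIs in 496 nuclei, which by a limit of 3 counts allows a share of up to 0.605% of nuclei with a UMI and a level of up to 0.231 CPM, and counting error is the only error in these limits. Calb1 had a UMI in 19 nuclei (3.83%), against 3.79% of oligodendrocytes, and so was about as frequent in both. En1 had a UMI in 18 nuclei (3.63%, against 0.139% in oligodendrocytes) and Onecut1 in 3. Onecut2 alone of the 8 genes of this list passed the filter, with a UMI in 224 nuclei (45.2%, against 37.6% in oligodendrocytes). Its level was 37.1 ± 14.1 CPM in VI, 10.4 ± 4.87 in DI, 9.82 ± 5.09 in MI and 47.0 ± 7.52 in VE neurons, so it did not set VI apart from VE. These percentages are of unthinned nuclei of different depth.

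Genes of the V1 class differed in how often they were found. En1, in few nuclei, was above its share in oligodendrocytes. Within cluster 4 of the authors' clustering, described further on, it was at 1.42 CPM in VI and 1.23 in VE nuclei (7 and 6 UMIs). Within cluster 14 it was at 2.025 and 0.841 CPM (10 and 6 UMIs). These pooled UMIs are too few to set VI apart from VE by En1. Esrrg was nearly as frequent in VE nuclei, as given above. Of 16 genes, 9 passed the filter for VI neurons. Foxp2 varied widely between mice, at 73.99 CPM in the lowest, 175.3 in the median and 336.2 in the highest, and its mean of 188.2 ± 81.9 compared with 16.9 ± 9.45 in DI, 44.4 ± 22.9 in MI and 56.2 ± 24.2 in VE neurons. It had a UMI in 179 VI nuclei (36.1%), and after thinning in 25.7%, against 12.7% in VE nuclei and 6.03% in oligodendrocytes. Esrrb was at 20.7 ± 8.88 CPM in VI, 11.4 ± 2.46 in VE, 1.78 ± 1.48 in DI and 1.82 ± 2.44 in MI. In all, 3 of 8 genes tested were higher and 1, Pax2, was lower than in DI (3.13 and 5.29% of all genes), 1 of 8, Esrrg, was higher than in MI (1.47%), and 2 of 9, Foxp2 and Pax2, were higher than in VE (0.0982%). Sp8 had 0 UMIs in VI nuclei.

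The V2b genes Gata2, Gata3, Tal1 and Sox14 did not pass the filter. Gata3 had a UMI in 24 VI nuclei (4.84%, against 0.139% in oligodendrocytes) and a mean of 3.04 ± 2.15 CPM, compared with 1.07 ± 1.37 in VE and 0.03 ± 0.10 in DI neurons. Dmrt3 and Wt1, which mark dI6 neurons, had UMIs in 9 and 5 nuclei. Of the 5 genes of the dI6 and V0d classes, Pax2 was lower than in DI, and so was Lhx5 (−1.22), which entered only through its level in DI. Of the ventral excitatory list, Slc17a6 and Sox5 passed the filter, and the class factors Shox2, Sim1, Evx1, Evx2, Lhx2 and Lhx9 did not.

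The VI nuclei were not 1 cluster. In the authors' clustering of all nuclei, 228 lay in cluster 4, 145 in cluster 14 and 75 in cluster 11, and the other 48 in 7 further clusters. VE nuclei numbered 228 in cluster 4, 196 in cluster 14 and 114 in cluster 11, so each of the 3 clusters held at least as many VE as VI nuclei. The clusters were formed on the same expression, and what follows is a description of pooled levels with no replicate.

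**Figure D3:**
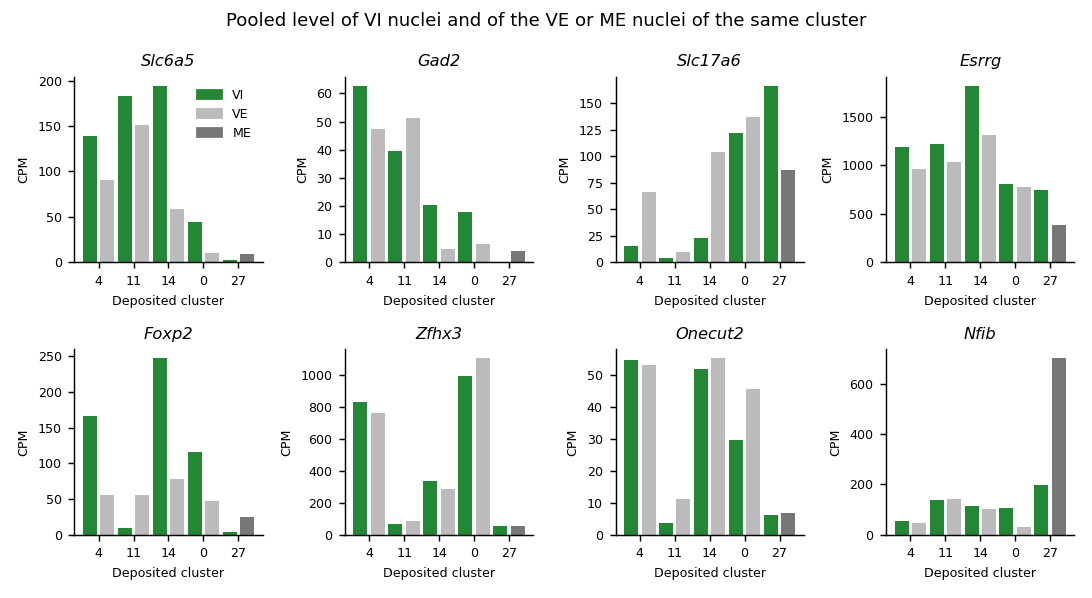
Pooled level of 8 genes (y axis, CPM over all nuclei of a bar) in the VI nuclei (green) of 5 deposited clusters (x axis) and in the VE (light grey) or, in cluster 27, ME (dark grey) nuclei of the same cluster. VI nuclei of clusters 4, 11 and 14 have Slc6a5 and little Slc17a6, whereas those of clusters 0 and 27 have more Slc17a6 (122.4 and 166.4).

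VI nuclei of clusters 4 and 14 were rich in Foxp2, at 166.6 and 247.2 CPM, while those of cluster 11 had 8.87. Cluster 11 was also low in Erbb4 (269.3 CPM against 2009 in the other VI nuclei) and in Zfhx3 (66.8 against 566.7). It was high in Zeb2 (307.9 against 43.4), which encodes a zinc finger repressor, and in Vgll3 (23.5 against 3.52). Cluster 4 was led by Col8a1 (19.1 against 3.47 CPM), Klhl1 (208.9 against 61.1) and Smoc1, and cluster 14 by Tarm1 (16.6 against 1.37), Adamtsl5 and Vwa7, with low Pde1a, Prlr and Tmem132d. Slc6a5 was at 138.9, 183.2 and 194.2 CPM in VI nuclei of clusters 4, 11 and 14, and Gad2 at 62.7, 39.7 and 20.5.

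VI and VE nuclei of the same cluster differed to different extents. In cluster 14, Slc6a5 was at 194.2 CPM in VI and 58.7 in VE nuclei, and Slc17a6 at 23.1 and 104.1. In cluster 11, Slc6a5 was at 183.2 and 151.7 CPM and Slc17a6 at 3.65 and 9.22, so that the nuclei labelled VE there also carried the RNA of glycine neurons. The VI nuclei of cluster 27, a cluster of 174 neurons of which 117 were labelled mid excitatory (ME), went against their label in part. They numbered 15 and had 166.4 CPM of Slc17a6, 2.05 of Slc6a5 and 0 UMIs of Gad2. Gad1 did not go that way, at 12.32 CPM with a UMI in 6 of the 15 nuclei. It was at 30.52, 20.35 and 9.72 CPM in VI nuclei of clusters 4, 11 and 14. An inhibitory UMI was present in 8 of the 15 nuclei, 7 of them with Slc17a6 as well. The 16 VI nuclei of cluster 0 had 122.4 CPM of Slc17a6 and 44.8 of Slc6a5. Counts over genes are given below also for the 448 nuclei of clusters 4, 11 and 14 and for the 443 nuclei with an inhibitory UMI.

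The share of VI nuclei among neurons did not differ detectably between the genotypes. In WT mice it was 4.71, 6.51 and 4.67% in the females and 5.76, 6.07 and 4.31% in the males of pools A, B and C. In SOD1G93A mice it was 2.61, 3.92 and 8.68% in the females and 6.83, 7.21 and 3.30% in the males. The WT mice lay inside the range of the SOD1G93A mice. The means were 5.34 ± 0.892% and 5.43 ± 2.47% (SD, n = 6 each), and the share was higher in SOD1G93A in 3 of 6 pairs (exact sign-flip permutation test, two-sided, p = 0.906, smallest possible p 0.0313). The quasi-likelihood test of edgeR over the sub-types gave a log2 change of 0.03 with an adjusted p of 0.890. Taken over all nuclei of the mouse, the share was 3.43 ± 0.777% in WT and 2.88 ± 1.38% in SOD1G93A mice (higher in 2 of 6 pairs, exact p = 0.375). Shares of nuclei depend on how many nuclei of other kinds were recovered, and dissociation was not measured.

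**Figure D4:**
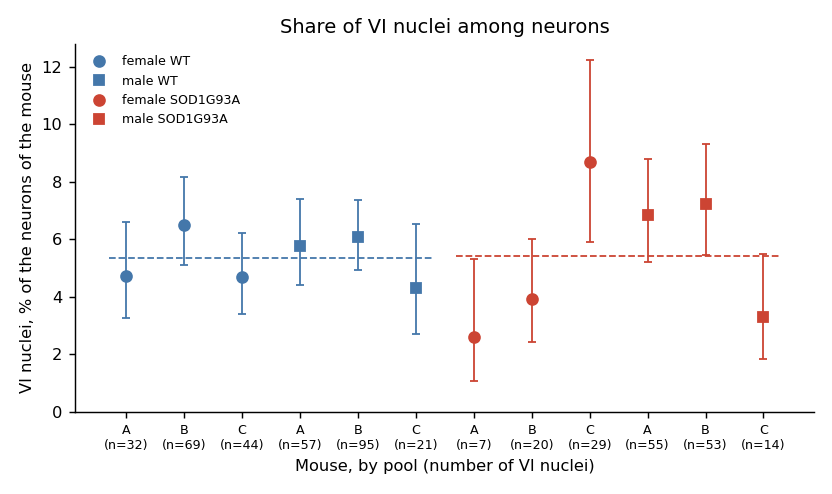
Share of VI nuclei among the neurons of each mouse (y axis, percent) with its exact 95% binomial interval (bars, counting error only), by genotype, sex and pool (x axis, with the number of VI nuclei). Dashed lines are the means of 6 mice, 5.34% in WT and 5.43% in SOD1G93A, and the SOD1G93A mice spread from 2.61 to 8.68%.

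The make-up of the VI nuclei by cluster also showed no called change. Cluster 4 took 46.6 ± 8.65% of VI nuclei in WT and 45.5 ± 7.66% in SOD1G93A mice, cluster 11 17.0 ± 3.83% and 12.0 ± 6.85%, and cluster 14 30.4 ± 7.50% and 21.0 ± 11.5% (SD, n = 6 each). The adjusted p of edgeR was 0.847, 0.658 and 0.658. The SOD1G93A female of pool A had no nucleus in cluster 11 or 14.

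Few genes of VI neurons were called for genotype. Of 8660 genes tested, 2 were differentially expressed genes (DEGs) at a false discovery rate (FDR) under 0.1 (0.0231%), 1 higher and 1 lower in SOD1G93A, while 302 had an unadjusted p under 0.05. By edgeR 4 genes were called, with 320 at an unadjusted p under 0.05, and by DESeq2 5 genes, with 190. The median SE of the log2 fold changes was 0.21.

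The higher gene was Sod1 (superoxide dismutase 1, chromosome 16, 90220754 to 90226329, plus strand, mm10). In WT mice it was at 20.9 CPM in the lowest, 28.3 in the median and 56.4 in the highest mouse, and in SOD1G93A mice at 37.2, 68.8 and 210.1. The genotypes overlapped across pools, but within each of the 6 pairs the SOD1G93A mouse was higher. The 2 SOD1G93A mice of pool A were at 210.1 and 209.6 CPM, and the WT mice of that pool at 56.4 and 50.3. The log2 fold change was 1.53 (SE 0.179, limma FDR 7.76e-05). It was 1.53 in each sex, and within pools A, B and C it was 1.88, 1.37 and 0.79. The call was lost without the pool term (FDR 1) and kept without each mouse in turn. UMIs were aligned to the mouse genome, so the human transgene is seen only through reads that align to mouse Sod1, and this checks the genotype labels. The genotype change of Sod1 in VI neurons did not differ detectably from that in DI (difference 0.33, limma unadjusted p = 0.132) or VE neurons (difference −0.19).

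**Figure D5:**
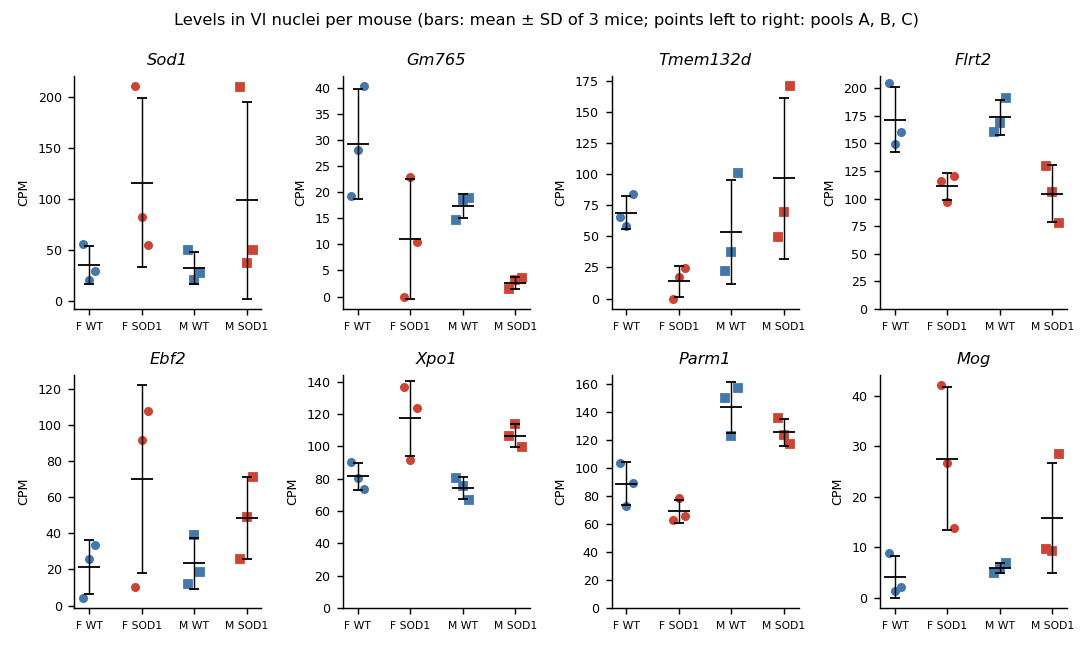
Level in the VI nuclei of each mouse (y axis, CPM) by sex and genotype (x axis, F female, M male, SOD1 for SOD1G93A), for 8 genes. Points are mice in the order of pools A, B and C, and bars give the mean ± SD of 3 mice. Flrt2, Xpo1 and Mog do not overlap between genotypes, and none of them passed the test. Of 8660 genes, 0.15% were higher and 0.104% lower in all SOD1G93A mice than in all WT mice. Tmem132d is low in the 3 SOD1G93A females (0 to 24.3).

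The lower gene was Gm765 (chromosome 6, 98235708 to 98342754, minus strand), a predicted protein-coding gene. It was at 14.7 CPM in the lowest, 19.0 in the median and 40.2 in the highest WT mouse, and at 0, 3.33 and 22.9 in SOD1G93A mice. It was lower in all 6 pairs, with a log2 fold change of −1.89 (SE 0.359, limma FDR 0.0652) from 220 UMIs in all. The call was lost in 8 of 12 fits that left out 1 mouse, while the log2 fold change stayed between −2.21 and −1.54 in all 12 fits. It was also lost in the 198 nuclei with few glial UMIs, those with at most 2 UMIs of glial markers (−2.21, limma FDR 0.995), in those with an inhibitory UMI (−1.53, FDR 0.999) and in clusters 4, 11 and 14 (−1.77, FDR 0.204).

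In all 6 pairs, 169 of the 8660 genes (1.95%) were higher and 146 (1.69%) lower in SOD1G93A, and the strongest of these below the threshold are given here. All SOD1G93A mice lay above all WT mice at 13 genes (0.15%) and below them at 9 (0.104%). Flrt2 (chromosome 12, 95692226 to 95785215), which encodes a cell adhesion and guidance protein, was between 149.6 and 204.7 CPM in WT and between 78.2 and 129.1 in SOD1G93A mice, without overlap (log2 fold change −0.61, SE 0.135, limma FDR 0.146). Its value was −0.72 in the nuclei with few glial UMIs. Ebf2, a transcription factor gene, was at 22.3 ± 13.2 CPM in WT and 59.2 ± 37.8 in SOD1G93A mice, a log2 fold change of 1.32 (SE 0.272, limma FDR 0.137), with overlap between the genotypes. Pid1 was between 216.3 and 301.7 CPM in WT and between 317.1 and 428.7 in SOD1G93A mice, also without overlap (log2 fold change 0.50, limma FDR 0.181). Xpo1, which encodes the nuclear export receptor exportin 1, was between 66.6 and 90.5 in WT and between 91.6 and 136.6 in SOD1G93A mice, without overlap (log2 fold change 0.49, limma FDR 0.683). The other lower genes were Prkch, Kcnab1 (−0.39), Tshz2, Wnt5b, Wars, Nomo1, Cdh18 (−0.34) and Exoc1, and the higher ones included Dscaml1 (0.59) and Srgap1. None of these passed the test.

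Mog, Cldn11 and Tspan2 were also among the genes of smallest p that did not pass the test. Mog was at 5.00 ± 2.83 CPM in WT and 21.7 ± 13.0 in SOD1G93A mice, a log2 fold change of 1.82 (limma FDR 0.146), and Cldn11 at 5.45 ± 3.68 and 13.8 ± 7.14 (1.79, limma FDR 0.146). Both were higher in 6 of 6 pairs, as was Tspan2 (1.49). The 3 genes are known from oligodendrocytes. Mog lay between 1.43 and 8.90 CPM in WT and between 9.30 and 42.0 in SOD1G93A mice, with no overlap. Mbp, the gene of myelin basic protein, was at 60.3 ± 10.3 CPM in WT and 85.0 ± 26.4 in SOD1G93A mice, higher in 5 of 6 pairs (log2 fold change 0.46, limma FDR 1). The sum of Mbp and Mog was 65.3 ± 11.3 CPM in WT, between 45.1 and 77.2, and 106.7 ± 32.2 in SOD1G93A mice, between 73.6 and 152.6, higher in 6 of 6 pairs with overlap between the genotypes. The part of free oligodendrocyte RNA in the other results was not tested. Astrocyte markers summed to 10.3 ± 4.05 CPM in WT and 15.0 ± 4.10 in SOD1G93A mice, microglial markers to 10.8 ± 3.97 and 9.11 ± 5.05, and endothelial markers to 5.88 ± 1.36 and 12.4 ± 10.1.

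Of the genes in the lists, 1 was called for genotype, Sod1, which stands in the list of injury and stress (1 of 6 tested genes) and in that of familial ALS genes (1 of 12). With 0.0231% of all genes called, a count of 0 in a list is no result about it. None of the 7 inhibitory transmitter genes was called. Slc6a5 was at 152.1 ± 25.4 CPM in WT and 149.3 ± 29.9 in SOD1G93A mice (log2 fold change −0.02, SE 0.129), Gad1 at 18.2 ± 3.96 and 23.0 ± 6.02, and Gad2 at 39.4 ± 7.22 and 44.9 ± 16.9. None of 20 genes of inhibitory synapses, 20 of fast firing, 21 glutamate receptor genes, 7 of the perineuronal net, 9 of the V1 class, 9 laminar factors and 3 acetylcholine receptor genes was called, nor any of 4 genes of dorsal inhibitory classes, 3 of calcium-binding proteins, 2 of ventral excitatory and 2 of dI6 and V0d classes. At an unadjusted p under 0.05 were 4 of 9 laminar factors, among them Zfhx3 (−0.59), Foxp2 (−0.59) and Onecut2 (−0.46), and 2 of 3 calcium-binding protein genes, Calb2 (−0.73) and Necab1, against 302 of all 8660 genes. So were 2 of 9 V1 genes, 2 of 6 injury and stress genes and 1 of 3 acetylcholine receptor genes. The count was 2 of 20 for fast firing and 1 of 21 for glutamate receptors. It was 0 of 7 inhibitory transmitter genes, 0 of 20 of inhibitory synapses and 0 of 7 of the perineuronal net. Foxp2 is also in the V1 list and Onecut2 in the Renshaw list, so these lists are not independent. Necab1 had a mean of 32.0 ± 13.8 CPM in WT and 16.3 ± 3.98 in SOD1G93A mice, a log2 fold change of −0.72 (limma FDR 0.973). Erbb4 was higher in 6 of 6 pairs, at 1639 ± 148 CPM in WT and 1959 ± 175 in SOD1G93A mice, a log2 fold change of 0.23 (limma FDR 1). Of the familial ALS genes, 0 of 12 passed the rule for a difference in level against each of DI, MI and VE, which is near the share of all genes in each comparison and is no result about the list. Of 6 injury and stress genes 1, Gap43, was lower than in DI (−1.76) and MI (−1.38), with 5.29 and 2.29% of all genes lower.

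The genotype changes of VI neurons were also compared with those of the other sub-types within each mouse. By limma on these differences, 0 of 8533 genes differed from DI (0%), 0 of 6563 from MI (0%) and 0 of 8658 from VE (0%) at FDR under 0.1, with 363, 314 and 361 genes at an unadjusted p under 0.05. A count of 0 does not show that the sub-types responded alike. The smallest FDR was 0.920 (Nup88), 0.188 (Mtf1) and 0.154 (Daam2).

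Sex was associated with 9 of 8660 genes (0.104%) in VI neurons, of which 7 lie on X or Y, with 3 higher (0.0346%) and 6 lower (0.0693%) in females. The non-coding RNA Xist was at 272.9 CPM in females and 9.76 in males, and the Y-linked gene Uty had a log2 difference of −6.10 (female minus male), in the direction of the labels. Outside X and Y, 2 of 8371 genes (0.0239%) were called, and both were lower in females. Parm1 (chromosome 5, 91517615 to 91626894) was at 78.9 ± 15.4 CPM in females and 134.4 ± 16.3 in males (log2 difference −0.77, SE 0.14, limma FDR 0.00982), and within pools A, B and C the difference was −0.79, −0.74 and −0.78. Leaving out the SOD1G93A female of pool C ended the call (FDR 0.335). Abi3bp, which encodes an extracellular matrix protein, was at 6.68 ± 5.41 CPM in females and 20.9 ± 7.51 in males (log2 difference −1.60, limma FDR 0.0433), from 167 UMIs, and was called under 9 of 21 alternatives.

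The effect of genotype differed between the sexes at 1 of 8660 genes (0.0115%), Tmem132d (chromosome 5, 127781630 to 128433077, minus strand), which encodes a transmembrane protein. In WT females of pools A, B and C it was at 65.3, 58.0 and 83.7 CPM, and in SOD1G93A females at 0, 17.2 and 24.3. In WT males it was at 22.3, 37.5 and 100.7 CPM, and in SOD1G93A males at 49.3, 69.8 and 170.5. All 3 female pairs were lower in SOD1G93A and all 3 male pairs higher. The log2 fold change was −2.13 (SE 0.40) in females and 0.91 (SE 0.26) in males, and the difference, male minus female, was 3.04 (SE 0.476, limma FDR 0.0106). The value of 0 came from the mouse with 7 nuclei. Tmem132d was at 16.0 CPM in VI nuclei of cluster 14 against 74.3 in the others, and in the nuclei of clusters 4, 11 and 14 alone the difference was 2.94 (limma FDR 0.134), close to that over all VI nuclei. Foxp2, another gene of uneven level among clusters, had log2 fold changes of −1.21 (SE 0.37) in females and 0.04 (SE 0.30) in males, and its difference was not called (limma FDR 0.999). The part of the cluster make-up in these results was not tested.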

How the data were processed

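Nuclei of lumbar cord from 12 mice in 3 hashtagged pools were sequenced with 10x v3 chemistry. The authors aligned the reads to a pre-mRNA assembly of mm10 with STAR 2.5.1b, and counted UMIs with Cell Ranger 3.1. The deposited counts are UMIs per gene and nucleus, not normalized. The authors assigned nuclei to mice by hashtag in Seurat 4.0.3. They removed nuclei with few genes, over 10% mitochondrial UMIs (the deposited percent column reaches 9.993) or hashtags of several mice, so that doublets within a mouse are not marked. The deposited integrated values were not used. Cell types, sub-types, mapping scores and clusters are those deposited by the authors. The deposited mapping score, the confidence of the sub-type, is a fraction from 0 to 1 that the authors took from the mapping. The 27 neurons with no sub-type were left out of tests of sub-types.

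UMIs of the VI nuclei were summed per gene and mouse. Genes were filtered with filterByExpr (minimum count 10) on 4 groups of sex and genotype, scaled with TMMwsp factors and fitted with voom and robust eBayes in limma 3.58.1, with a term for group and 1 for pool. The Benjamini-Hochberg adjustment ran over all genes tested (FDR under 0.1). Genotype is the mean effect over the sexes, sex is female minus male, and the interaction is the male minus the female effect of genotype. Differences of genotype effects between sub-types were fitted with limma on within-mouse log2 CPM differences (prior count 2). Shares were tested with edgeR 4.0.16 (threshold 0.05) and an exact sign-flip test over the 6 pairs. Levels of VI against DI, MI and VE are descriptions. DESeq2 1.42.0 was an alternative. Scripts were tested on simulated data. Alternatives cover the test, scaling, filter, pool term, nuclei and mice.

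Pools are batches by the labels and so were a block in every model. Deviations from the group mean over 2000 genes correlated with a median r of 0.08 between mice of the same pool and −0.08 between mice of different pools and groups. Depth ran from 95191 to 2773924 UMIs per mouse, and intervals cover counting error only. Genes named are those of the lists, the 8 highest and 5 lowest in each comparison of sub-types, the 3 leading genes of a cluster in each direction, and those called or of smallest p with 6 of 6 pairs in 1 direction. The members and the gene lists were chosen with earlier results of these data known. Gene positions are those of GENCODE M21 on mm10, matched by symbol for 98.0% of genes. Some members of the gene lists are not reported here, and counts over a list include them.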

Additional observations from a re-analysis of the deposited data

Results flagged for a closer look

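The effect of genotype on Tmem132d in VI neurons differed between the sexes, with a difference of 3.04 on the log2 scale, male minus female (limma FDR 0.0106). It is named here because the difference itself passed the test. It was called under 19 of 23 alternatives, whose values ran from 2.75 to 4.10. Without the SOD1G93A female of pool C the value was 2.82 and the FDR 0.998. By a gap rule, no mouse was flagged as far from all of the other 5 of its genotype in any of 18 sets of 6 values looked at. The rule (Dixon's ratio) sets the gap between an extreme mouse and its nearest neighbour against the range of the 6 values. It therefore cannot flag distant mice that lie close together. The Sod1 levels of the SOD1G93A mice of pool A, given above, are such a case, so the rule does not show that distant mice were absent.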

How the results depend on the processing

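The genotype count of 2 genes was 4 with edgeR, 5 with DESeq2, 7 with no filter on low counts, 1 with a minimum count of 30, 0 without the pool as a block, 1 without the robust option, 1 each in nuclei with few glial UMIs, in nuclei with an inhibitory UMI and in clusters 4, 11 and 14, and 1 to 9 without a mouse in turn (9 without the WT female of pool A, 6 without that of pool B, 5 without the SOD1G93A female of pool A). The 2 autosomal sex genes became 7 with no filter and 1 at a minimum count of 30, without the pool block, with few glial UMIs, with an inhibitory UMI and in the 3 clusters (1 to 8 without a mouse, 8 without the WT female of pool B). The interaction count of 1 became 3 with no filter, 2 at a minimum count of 30, 0 without the pool block, with few glial UMIs and in the 3 clusters, 6 without the mice with under 15 VI nuclei, and 1 to 9 without a mouse (9 without the WT female of pool B). Without the pool block, Sod1 was at 1.44 (FDR 1), Gm765 at −1.90 (FDR 0.160), Abi3bp at −1.49 (FDR 0.805) and Tmem132d at 2.83 (FDR 1.00), and all 4 calls were lost. Genes higher in VI than in DI (283) numbered 184 at a minimum count of 30 and 450 in WT mice only (272 to 339 without a mouse). Against MI (106) they numbered 49 at that minimum, 218 in WT mice only, 66 with thinned UMIs and 170 without the mice with under 15 nuclei (91 to 138 without a mouse), and against VE (9) 22 in WT mice only (9 to 10 without a mouse). In WT mice only, 6 mice had to agree in place of 12. The genotype difference against MI gave 1 gene without the pool block, that against VE 1 gene with a prior count of 0.5, and that against DI 0 under every alternative. The log2 change of the VI share turned to −0.24 over all nuclei and to −0.0729 with limma on log2 ratios, and ran from −0.33 (without the SOD1G93A female of pool C) to 0.23 without a mouse. That of cluster 4 ran from −0.148 to 0.0762 without a mouse, that of cluster 11 (−0.28) from −0.47 to −0.20, and that of cluster 14 (−0.31) from −0.14 (without the WT female of pool B) to −0.78 (without the SOD1G93A female of pool C, edgeR adjusted p 0.104), and 0 clusters were called under any alternative. The cause of these shifts was not tested. Alternatives on inhibitory UMIs, on the 3 clusters and on mice with few nuclei were chosen after seeing the data. TMM in place of TMMwsp called the same 2 genotype genes. The few nuclei of some mice limit what can be seen: the SOD1G93A female of pool A has 95191 UMIs, so that 1 UMI there is 10.5 CPM.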
